A study of Homo sapiens with 3 samples.

Results

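The genes described here are 10 feedback regulators and transcriptional outputs of MAP kinase signalling, found by gene name in the deposited expression table, out of 58302 genes. They are the dual-specificity phosphatases DUSP1, DUSP4, DUSP5 and DUSP6, the Sprouty-family inhibitors SPRY2, SPRY4 and SPRED1, the ETS transcription factors ETV4 and ETV5, and PHLDA1. All 10 had a single row each and passed the filter on low counts, with between 133 and 4983 counts in a library. RNA came from the established colorectal cancer line HCT116, grown from a human tumour, and the study compared cells with low DUOX2, a peroxide-making oxidase, with a control group. Each of 3 libraries came from cells given a different small interfering RNA (siRNA): 2 carried siRNAs labelled si1 and si2 (here siRNA 1 and siRNA 2), and 1 carried the siRNA labelled NC (the control). The labels give no other treatment, dose or time, and they do not say whether the libraries came from separate cultures. The only replicate spread behind the p-values is that between the libraries of siRNA 1 and siRNA 2, pooled in part over all genes. Because siRNA 1 and siRNA 2 differ in sequence, that spread mixes any difference between them with culture and technical variation. These cannot be told apart here, and the spread may be technical only.

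In the ERK branch of MAP kinase signalling, growth factor receptors activate RAS, which switches on the RAF, MEK and ERK kinases in turn. Active ERK induces its own inhibitors: DUSPs remove phosphate from MAP kinases, and Sprouty and SPRED proteins restrain signalling between receptor and RAF. ETV4, ETV5 and PHLDA1 are induced by the same route, so the messenger RNA of these genes is widely read as a sign of ERK activity.

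The siRNA guide strands are shown because they define the libraries, with bases 2 to 8 (the seed, which pairs first with a target) in capitals, each 5′ to 3′ and without its overhang. The first strand given in each label was the reverse complement of the guide.
Control siRNA: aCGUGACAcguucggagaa
siRNA 1: aACCACUAuguuguccucc
siRNA 2: aUGAAGGAucgcaucaugg
Over all 19 bases, siRNA 1 and siRNA 2 each matched transcripts of DUOX2 and of no other gene in GENCODE 29, and the control siRNA matched none. In transcripts of the 10 genes the best alignment of any of these siRNAs had at least 5 mismatches. The site complementary to the seed of siRNA 1 (TAGTGGT) occurred in the longest transcript of PHLDA1 alone among the 10, and in 11.9% of the genes tested. The seed site of siRNA 2 (TCCTTCA) occurred in DUSP6, SPRY4, SPRED1 and ETV4, and in 29.4% of the genes tested, and that of the control (TGTCACG) in none of the 10 and in 6.35% of the genes tested. These matches describe the letters of the transcripts, and their part in any result was not tested.

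The libraries held 17589502 (control), 19130768 (siRNA 1) and 18832672 (siRNA 2) counts. DUOX2 had 2 control counts, 2 in the siRNA 1 library and 0 in that of siRNA 2. A count of 0 allows up to 3 counts, so the level of the target could not be compared and gives no check of the labels. Of 9 markers of colorectal epithelium, 1 was at 0 in the control (CEACAM5) and 2 in each siRNA library (CEACAM5 among them). The summed level of the list was 5349 CPM (the count scaled to the library total) in the control, 3284 CPM for siRNA 1 and 4870 CPM for siRNA 2. Of 10 retinal markers, listed because the extraction protocol speaks of retinas, 7 were at 0 in every library, and their sum was 0.796 to 1.36 CPM. Fibroblast markers summed to 2.20 to 3.30 CPM, leukocyte markers to 2.67 to 5.29 CPM and endothelial markers to 0.261 to 0.512 CPM. Mitochondrially encoded genes took 8.58%, 12.1% and 8.83% of counts.

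With the siRNAs against DUOX2 the 10 genes showed no common direction. With TMM scaling between libraries, DUSP1, SPRY4 and ETV4 lay below the control with both siRNAs, and SPRED1 and ETV5 above it with both. DUSP4, DUSP5, DUSP6, SPRY2 and PHLDA1 lay on opposite sides of it. Without that scaling, as CPM, DUSP4 (37.3 in the control, 34.6 and 33.6 with the siRNAs) and DUSP6 (268, 234 and 265) lay below with both. None of the 10 passed edgeR's quasi-likelihood test (adjusted p between 0.143 and 0.979), which called 0.0579% of the 17263 genes tested (0.0174% higher, 0.0405% lower). DESeq2 also called 0 of the 10, against 5.54% of the 10234 genes to which it gave an adjusted p. ETV4 was the 1 member with an unadjusted p under 0.05, against 26.0% of all genes tested. By size, 0 of the 10 differed at least 2-fold from the control with both siRNAs, which 9.05% of genes did (5.05% in the lower direction). The median log2 fold change over the 10 genes was -0.02, and 0.01 over all genes tested. Genes below the control with both siRNAs made up 41.6% of all genes tested, those above it with both 41.9%, and those on opposite sides 16.4%.

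**Figure D1:**
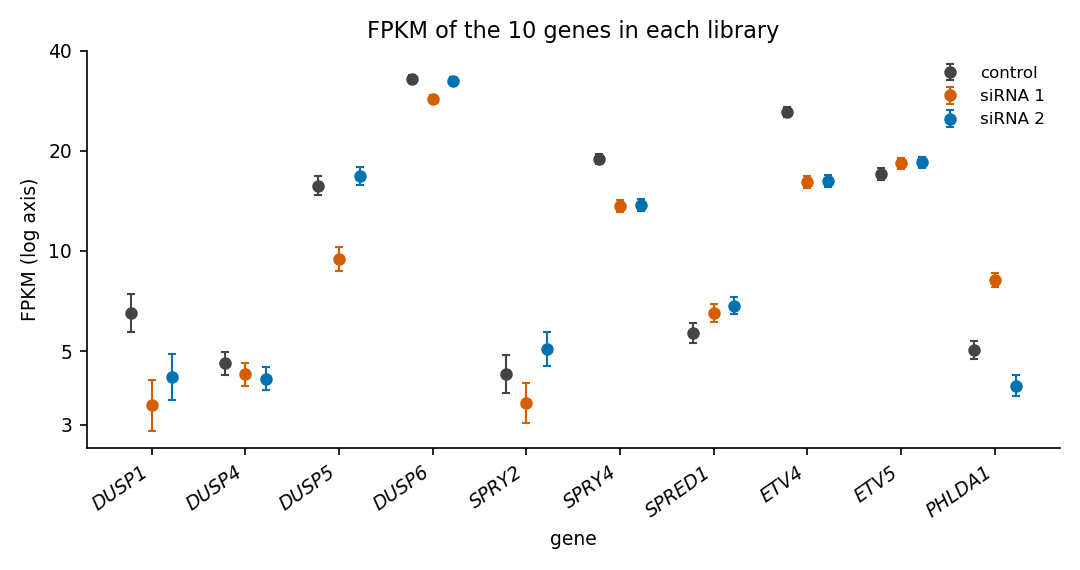
FPKM (log axis) of each gene in the control library and with siRNA 1 and siRNA 2, 1 point per library. Bars are 95% Poisson intervals of the count and cover counting error only. DUSP6 is highest in every library, and the control point of DUSP1, DUSP4, DUSP6, SPRY4 and ETV4 lies above both siRNA points.

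Levels between genes are compared as FPKM, the authors' count scaled to gene length and library total. In the control library DUSP6 stood highest at 32.9 FPKM, followed by ETV4 (26.2), SPRY4 (18.9), ETV5 (17.0) and DUSP5 (15.7). DUSP1 (6.50), SPRED1 (5.66), PHLDA1 (5.04), DUSP4 (4.59) and SPRY2 (4.27) formed a lower group. The highest 3 were separate by counting error, while ETV5 and DUSP5, and each pair of neighbours in the lower group, had overlapping 95% Poisson intervals. DUSP6 lay above 96.5% of protein-coding genes in the control and SPRY2 above 71.0%. The length behind the FPKM was the exon length in GENCODE 29 for DUSP1 and SPRY2 and longer for the other 8 genes (8166 bases for DUSP6, whose exons cover 4632). With the count scaled to exon length in kilobases and to the library total, the order of the upper 5 in the control was the same (DUSP6 58.0, ETV4 52.4, SPRY4 25.9, ETV5 23.4, DUSP5 18.98), and PHLDA1 (6.52) stood above DUSP1 (6.50).

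Among the phosphatases, DUSP6, a cytoplasmic phosphatase selective for ERK (ENSG00000139318, chromosome 12, 89347232 to 89353271, minus strand, GRCh38), had 4722 control counts, 4474 in the siRNA 1 library and 4983 in the siRNA 2 library. With TMM scaling the siRNA libraries lay on either side of the control, at log2 differences of -0.06 and 0.04. As FPKM both lay below it. Its fitted log2 fold change was -0.01 ± 0.18 (SE, 2 libraries against 1), with a 95% interval from -0.46 to 0.44, so changes up to about those bounds could not be told from none. An antisense gene, AC024909.2, covers 40.5% of its exon bases and had 20, 15 and 11 counts, few beside those of DUSP6. The counting program and its use of strand are not given. How reads over shared exon bases were counted, here and for other genes below, is therefore not known.

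DUSP4, a nuclear phosphatase of ERK and JNK (ENSG00000120875, chromosome 8, 29333064 to 29350668, minus strand), had 656 control counts, 662 for siRNA 1 and 633 for siRNA 2. Its log2 differences were 0.03 and -0.09, and the edgeR interval ran from -0.59 to 0.53. Like DUSP6, it showed no separation of the siRNA libraries from the control with TMM scaling, and as FPKM both lay below it.

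DUSP5, a nuclear phosphatase selective for ERK (ENSG00000138166, chromosome 10, 110497838 to 110511544, plus strand), had 873 control counts, 573 in the siRNA 1 library and 1002 in the siRNA 2 library. It was low with siRNA 1 alone, at a ratio to the control of 0.665 (95% interval 0.597 to 0.740, counting error only), and with siRNA 2 the ratio was 1.12 (1.02 to 1.23). The fitted log2 fold change was -0.17 ± 0.35 (SE). Its pseudogene copy DUSP5P1 had 12, 8 and 6 counts.

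DUSP1, an immediate early phosphatase that acts mainly on the stress kinases p38 and JNK (ENSG00000120129, chromosome 5, 172768090 to 172771195, minus strand), had 231 control counts, 133 in the siRNA 1 library and 159 in the siRNA 2 library. Both siRNA libraries lay below the control, at log2 differences of -0.77 and -0.57, the lowest fitted value of the 10 (log2 fold change -0.67 ± 0.28 SE, 95% interval -1.37 to 0.02, edgeR adjusted p = 0.199). Genes within 2 percentage points of its GC content of 55.1% had a median log2 fold change of -0.36, and 22.4% of them lay lower than DUSP1.

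In the Sprouty family, SPRY4, an inhibitor of receptor signalling to RAS (ENSG00000187678, chromosome 5, 142310427 to 142326455, minus strand), had 2995 control counts, 2352 in the siRNA 1 library and 2331 in the siRNA 2 library. The siRNA libraries agreed closely with each other and lay below the control, at log2 differences of -0.33 and -0.40 (fitted -0.36 ± 0.19 SE, edgeR adjusted p = 0.263). An antisense gene, SPRY4-AS1, overlaps its locus but none of its exon bases and had 48, 50 and 54 counts. Genes of like GC content had a median of -0.05, and 22.7% of them lay lower than SPRY4.

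SPRY2, its relative (ENSG00000136158, chromosome 13, 80335976 to 80340951, minus strand), had 228, 203 and 290 counts (control, siRNA 1, siRNA 2), on either side of the control. Its ratio to the control was 0.902 (0.743 to 1.10, counting error only) with siRNA 1 and 1.24 (1.04 to 1.48) with siRNA 2. SPRY4 had 13.1 times the counts of SPRY2 in the control, 11.6 times with siRNA 1 and 8.04 times with siRNA 2.

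SPRED1, which brings neurofibromin to RAS (ENSG00000166068, chromosome 15, 38252326 to 38357249, plus strand), had 867 control counts, 1084 for siRNA 1 and 1123 for siRNA 2. Both siRNA libraries lay above the control by about the same amount, at log2 differences of 0.34 and 0.33 (fitted 0.34 ± 0.21 SE, edgeR adjusted p = 0.345). Among 4689 genes with a mean count within 2-fold of its own, 98.2% had a larger distance between siRNA 1 and siRNA 2. Its GC content, 38.9%, was the lowest of the 10, and genes of like GC content had a median log2 fold change of 0.49, above its own.

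The ETS factors ETV4 and ETV5, close relatives that ERK induces and activates, lay on opposite sides of the control. ETV4 (ENSG00000175832, chromosome 17, 43527844 to 43579620, minus strand) had 3327 control counts, 2228 in the siRNA 1 library and 2203 in the siRNA 2 library. Both siRNA libraries were low and alike, with log2 differences of -0.56 and -0.63 (fitted -0.60 ± 0.18 SE, 95% interval -1.05 to -0.14, unadjusted p = 0.0195, edgeR adjusted p = 0.143). ETV5 (ENSG00000244405, chromosome 3, 186046308 to 186110318, minus strand) had 2384, 2792 and 2771 counts, slightly high with both siRNAs (fitted 0.21 ± 0.19 SE, edgeR adjusted p = 0.491).

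Counts of ETV4 were 1.40 times those of ETV5 in the control, 0.798 times with siRNA 1 and 0.795 times with siRNA 2, a ratio that no library scaling touches. On the FPKM scale ETV4 stood above ETV5 in the control (26.2 against 17.0) and below it with siRNA 1 (16.1 against 18.3) and siRNA 2 (16.2 against 18.5). Scaled to exon length and library total instead, ETV4 remained the higher of the pair with siRNA 1 (32.3 against 25.2) and siRNA 2 (32.4 against 25.4), so the order depends on the gene length used. The genes differ in GC content, 60.8% for ETV4 and 48.6% for ETV5. Genes of like GC content had median log2 fold changes of -0.72 and 0.04, so that ETV4 stood above most genes of its GC content, with 65.1% of them lower. ETV4 shares 1.89% of its exon bases with DHX8 on the other strand and ETV5 2.83% with DGKG on its own strand.

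PHLDA1, a pleckstrin-homology-like protein induced by growth factors (ENSG00000139289, chromosome 12, 76025447 to 76033932, minus strand), had 925 control counts, 1628 in the siRNA 1 library and 773 in the siRNA 2 library. It was high with siRNA 1 alone, at 1.78 times the control (1.64 to 1.94, counting error only), and 0.814 times the control (0.739 to 0.896) with siRNA 2. The libraries of siRNA 1 and siRNA 2 stood 2.19-fold apart (2.01 to 2.39), the widest gap among the 10, and 2.45% of 4568 genes with a mean count within 2-fold of its own lay further apart. The fitted value, 0.38 ± 0.46 (SE), averages these opposite differences and had the widest interval of the 10, from -0.78 to 1.53. Antisense genes AC011611.3 and AC011611.4 together cover 16.5% of its exon bases and had at most 6 counts in a library.

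**Figure D2:**
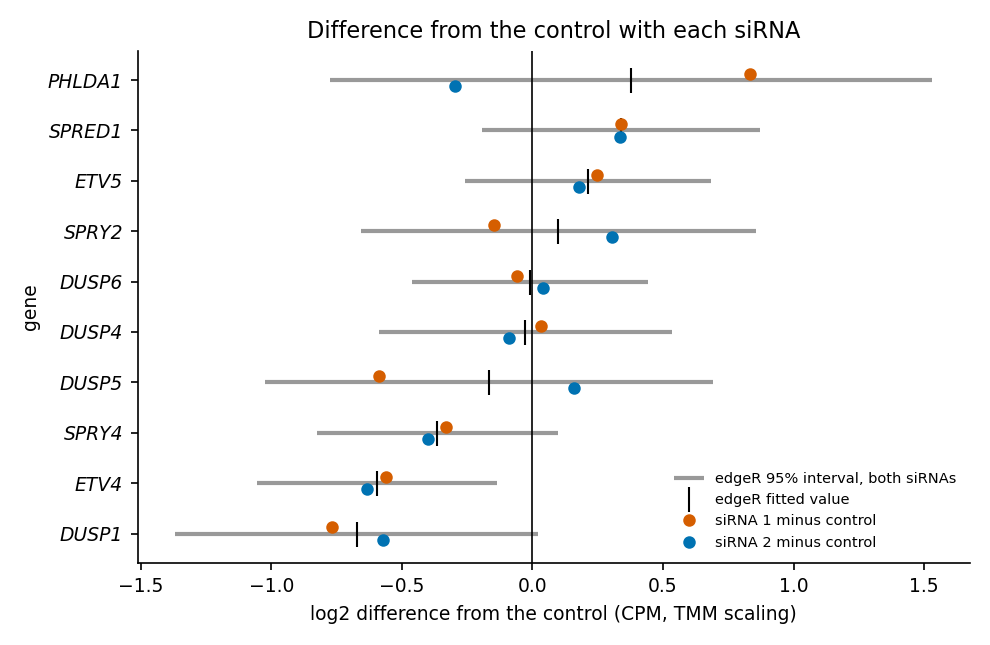
Log2 difference of CPM (TMM scaling) from the control for siRNA 1 and siRNA 2, 1 point per library, with the edgeR fitted value and its unadjusted 95% interval. ETV4 is the 1 gene whose interval leaves out 0. The siRNA points of PHLDA1, DUSP5, SPRY2, DUSP4 and DUSP6 lie on opposite sides of 0, those of DUSP4 and DUSP6 close to it.

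Across all genes tested the fold change followed the GC content of the longest transcript, with a Spearman's rho of -0.69 over 17209 genes that share the same 3 libraries. Over the 10 genes it was -0.85, from SPRED1 at 38.9% GC to ETV4 at 60.8%. With the GC trend of each library removed, the differences of ETV4 moved to 0.28 with siRNA 1 and 0.00 with siRNA 2, and its fitted value changed sign, to 0.15 (edgeR adjusted p = 0.823). Those of SPRED1 also changed sign, to -0.18 and -0.07. DUSP1 stayed below the control at -0.35 and -0.25, SPRY4 at -0.25 and -0.34, and ETV5 above it at 0.21 and 0.14. PHLDA1 kept opposite signs, at 0.53 and -0.53, as did DUSP5 at -0.11 and 0.52 and SPRY2 at -0.20 and 0.26. DUSP6 came to lie below the control with both siRNAs (-0.22 and -0.09) and DUSP4 above it with both (0.18 and 0.02). After removal 3 of the 10 had opposite signs, as did 27.5% of all genes tested. None of the 10 passed the edgeR test after removal (adjusted p from 0.578 to 0.964). The GC trend and the siRNA treatment cannot be told apart in a design with a single control library.

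**Figure D3:**
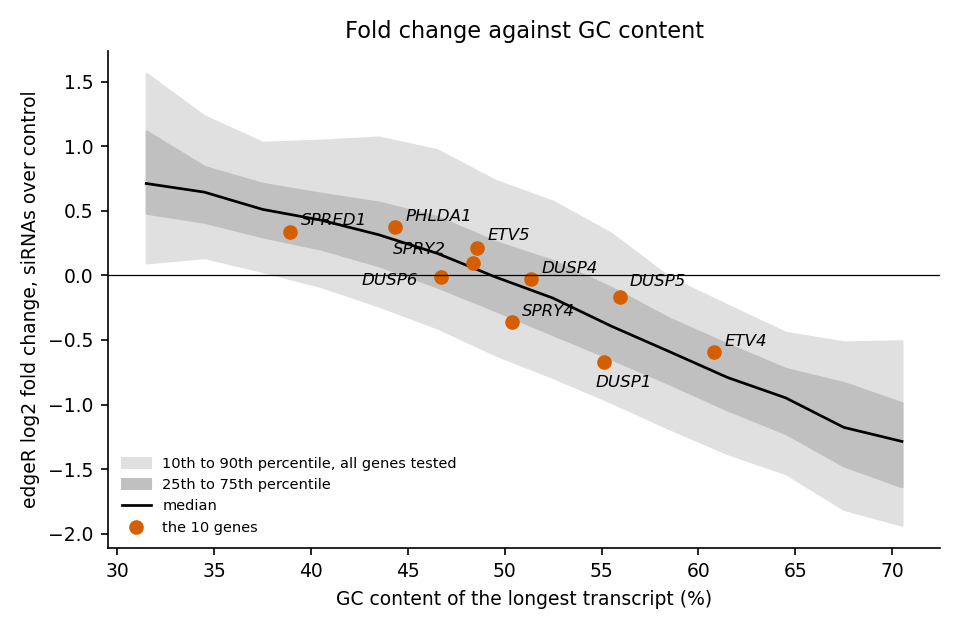
Fitted log2 fold change (siRNAs over control) against GC content of the longest transcript. Grey bands and the line are percentiles and the median of all genes tested in bins of GC content, and the points are the 10 genes. The points run down with the line, and all 10 lie between its 10th and 90th percentile bands.

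Promoter sequences for 6 of the 10 genes were found in RefSeq (GRCh38.p14), namely DUSP1, DUSP6, SPRY2, SPRY4, SPRED1 and PHLDA1. The 250 bases before the start were searched on both strands for the cyclic AMP response element TGACGTCA, the ETS core CCGGAA, the AP-1 site TGANTCA and the CArG box bound by serum response factor, none of which overlapped another here. DUSP1 and SPRY2 are shown because their windows lie outside the deposited locus and each holds a match, in capitals, 5′ to 3′ on the gene's strand.
DUSP1, chr5:172771196-172771445, minus strand: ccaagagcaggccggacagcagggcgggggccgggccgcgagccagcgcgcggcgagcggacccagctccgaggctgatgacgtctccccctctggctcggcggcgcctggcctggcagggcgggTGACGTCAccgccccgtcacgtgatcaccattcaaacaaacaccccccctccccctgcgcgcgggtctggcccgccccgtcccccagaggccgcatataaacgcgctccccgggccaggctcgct
SPRY2, chr13:80341127-80341376, minus strand: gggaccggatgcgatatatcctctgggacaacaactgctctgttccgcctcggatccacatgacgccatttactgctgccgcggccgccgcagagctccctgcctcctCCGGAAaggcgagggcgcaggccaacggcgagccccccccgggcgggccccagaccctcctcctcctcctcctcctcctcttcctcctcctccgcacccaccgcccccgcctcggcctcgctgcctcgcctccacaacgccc
The capitals in DUSP1 are the cyclic AMP response element, which 1.65% of 35116 promoters of the same length held and no other of the 6 did. Those in SPRY2 are the ETS core, held by 14.5% of promoters and, of the 6, also by PHLDA1. The AP-1 site (6.57% of promoters) and the CArG box (1.16%) occurred in none of the 6. In the data DUSP1 was low with both siRNAs and SPRY2 lay on either side of the control. Neither passed the edgeR test (adjusted p = 0.199 and 0.854), and a link of these values to the motifs was not tested. A match describes these letters and is not evidence of a bound factor.

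The rest of the pathway was read from lists of other genes. Of 14 further DUSP, SPRY, SPRED, ETV and PHLDA genes, 0 passed the test in either direction, against 0.0579% of all genes tested. By size, 2 were at least 2-fold lower with both siRNAs, as were 5.05% of all genes. These were PHLDA2, an imprinted growth regulator, with 720, 251 and 262 counts, and PHLDA3, an inhibitor of AKT, with 1382, 555 and 636 counts, which was named after its values were seen and overlaps AC096677.2. With the GC trend removed PHLDA2 stood at -0.49 and -0.73, and neither was beyond 2-fold with both siRNAs. ETV1, the third ETS factor of the group with ETV4 and ETV5, had 102, 221 and 163 counts (log2 differences 1.12 and 0.63, and 0.56 and 0.20 after removal). The list median was -0.25, and 0.02 after removal.

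Of 16 other ERK-induced genes, MYC, the growth-promoting transcription factor, was the 1 that passed, higher, as did 0.0174% of all genes tested. MYC had 281, 2447 and 2709 counts (log2 fold change 3.19 ± 0.24 SE, edgeR adjusted p = 0.0274). This call was lost in 6 of 8 alternatives with a test (adjusted p from 0.0752 with total count scaling to 0.340 without a filter, and 0.147 with the GC trend removed), and DESeq2 kept it. Its log2 fold change stayed between 2.51 (limma, pseudocount 1) and 3.47 (GC trend removed) over all 8. MYC has many inputs other than ERK. CCND1, the cyclin that drives entry into the cell cycle, was the most abundant of the list at 346, 351 and 352 FPKM, and level across libraries. PLAUR, the urokinase receptor, was lowest, with 851, 404 and 480 counts (log2 differences -1.05 and -0.86, and -0.59 and -0.51 after removal). The list median was -0.07, and 0.03 after removal.

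Of 22 genes of the RAS-ERK cascade, 0 passed in either direction, against 0.0579% of all genes tested. By size, 0 were beyond 2-fold with both siRNAs, against 9.05% of all genes. PTPN11, the phosphatase SHP2 that relays receptor signals to RAS, was most abundant, with 5598, 7807 and 7936 counts (log2 differences 0.50 and 0.47, and 0.10 and 0.16 with the GC trend removed). RPS6KA3, a kinase downstream of ERK, was highest at 0.92 and 0.71, and MAP2K2, the kinase MEK2, lowest at -1.29 and -0.84. MAP2K2 has a GC content of 60.9% and RPS6KA3 of 40.04%, and after removal of the trend they stood at -0.44 and -0.19, and at 0.44 and 0.34. The list median was -0.17, and 0.10 after removal, so its sign turned.

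Of 10 ERK-regulated transcription factors and repressors, 0 passed, against 0.0579% of all genes tested. By size, 1 was 2-fold lower with both siRNAs, as were 5.05% of all genes. This was CIC, the repressor of ETV4 and ETV5 that ERK relieves, with 1640, 665 and 707 counts (edgeR adjusted p = 0.106). CIC has a GC content of 65.8%, and its log2 differences moved from -1.28 and -1.25 to -0.10 and -0.36 after removal. ELK4, a partner of serum response factor, had 1415, 2662 and 2514 counts (edgeR adjusted p = 0.123). Its log2 differences of 0.93 and 0.79 moved to 0.39 and 0.37 after removal. ETV3, an ETS repressor, had 4998, 5532 and 5524 counts (log2 differences 0.17 and 0.11, and -0.08 and -0.09 after removal). The list median was -0.53, the lowest of these lists, and -0.10 after removal. Of 6 JNK and p38 kinases tested, 0 passed and 0 were beyond 2-fold with both siRNAs, against 0.0579% and 9.05% of all genes tested. MAPK13, the most abundant, had log2 differences of -0.36 and -0.13, MAPK9 was highest at 0.51 and 0.26 and MAPK11 lowest at -1.08 and -0.43. After removal MAPK9 stood at 0.17 and 0.00 and MAPK11 at -0.09 and 0.31. The list median was -0.05, and 0.06 after removal, so its sign turned.

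**Figure D4:**
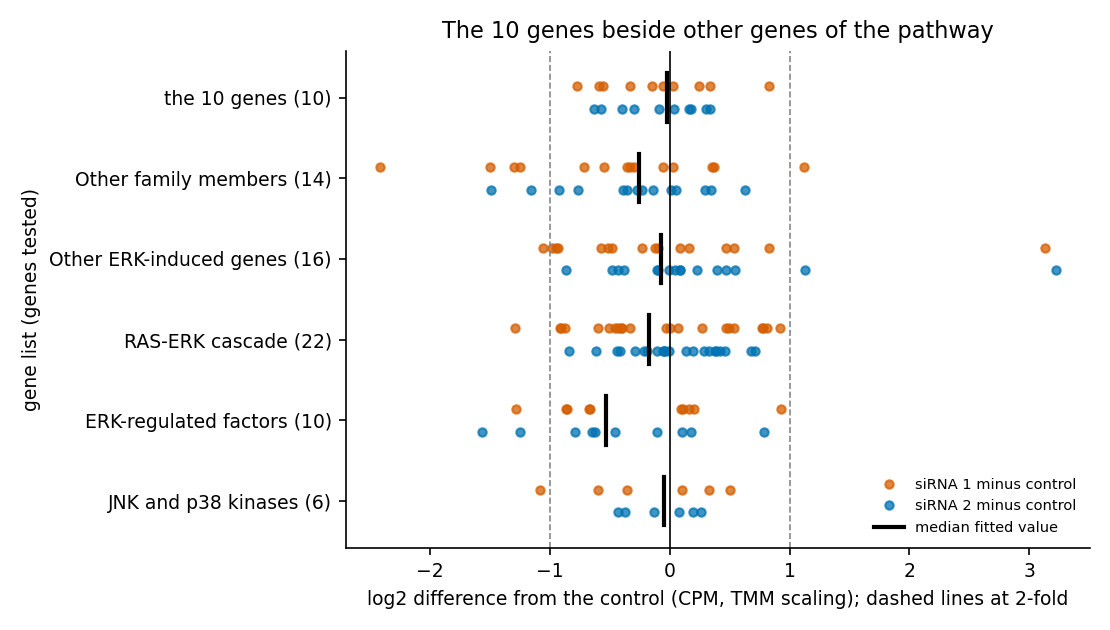
Log2 difference of CPM (TMM scaling) from the control with siRNA 1 and siRNA 2 for the 10 genes and for 5 other lists of the pathway, 1 point per gene and siRNA, with the median fitted value as a bar. The 10 genes lie within the dashed lines at 2-fold, and MYC is the pair of points above 3.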

How the data were processed

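Per the submitters' processing notes, the authors used Bowtie 0.12.2 and named the builds mm8 and GRCh38 without roles. Of 58039 genes also in GENCODE 29 (GRCh38), 97.5% had identical coordinates. For the counting program and its use of strand, nothing is given in the sources used here. The authors deposited raw counts and FPKM per gene; 99.4% of gene lengths implied by the FPKM, over 12288 genes with at least 50 counts in each library, were whole within 0.05 bases.

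All genes were fitted together with edgeR 4.0.16 (R 4.3.3): TMM scaling, filterByExpr (minimum count 10), glmQLFit, glmQLFTest, Benjamini-Hochberg adjustment and a threshold of 0.05. The fit had 1 residual degree of freedom per gene and a median of 4.659 prior degrees of freedom drawn from all genes. Differences per siRNA are log2 CPM with a prior count of 2. GC content is that of the longest GENCODE 29 transcript, and its trend in each library was taken by lowess (fraction 0.3). Alternatives used DESeq2 1.42.0, limma 3.58.1, other scalings and other filters.

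The members and gene lists were chosen with earlier results of these data known. All members are named; of each other list, the gene of highest FPKM and those of highest and lowest mean log2 difference among genes with at least 50 counts in a library.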

Additional observations from a re-analysis of the deposited data

How the results depend on the processing

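None of the 10 genes passed the test under the 8 alternatives with a test or at an adjusted p threshold of 0.10 (edgeR unadjusted p under 0.05 for ETV4 alone). None was beyond 2-fold with both siRNAs under the 7 of these 8 that give a difference per siRNA (all but the DESeq2 test), nor with either siRNA library alone. Of 80 member fold changes under the 8 alternatives with a test, 74 kept their direction and side of the threshold and 6 changed sign. With the GC trend removed the fitted values were 0.10 for DUSP4, 0.24 for DUSP5, -0.12 for SPRED1 and 0.15 for ETV4; with limma SPRY2 was -0.012 on log2(FPKM + 1) and -0.019 on log2(FPKM + 0.1). With 1 siRNA library left out, which leaves values with no test, 5 of 20 values changed sign: DUSP4 ranged from -0.089 to 0.032, DUSP5 from -0.59 to 0.16, DUSP6 from -0.059 to 0.039, SPRY2 from -0.15 to 0.31 and PHLDA1 from -0.30 to 0.83. The causes were not tested. The median over the 10 genes was -0.12 with total count scaling, -0.11 and -0.12 with limma (pseudocounts 1 and 0.1), 0.075 with the GC trend removed, and -0.10 to -0.025 with 1 siRNA library left out. The median of all genes was 0.01, -0.09 with total count scaling and -0.09 with limma at pseudocount 0.1. The number of all genes called was 10, 567 with DESeq2 (263 higher, 304 lower), 63 at a threshold of 0.10, and 0 with no count filter, with a 1 CPM minimum in all libraries, with limma at either pseudocount and with the GC trend removed. No paired analysis was possible because a single control library served the libraries of both siRNA 1 and siRNA 2. Counts of 133 to 290 for DUSP1 and SPRY2 give these genes the widest counting error of the 10, and a single control library limits every comparison.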
